A study of Mus musculus with 192 samples.

Results

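Nrgn, Camk4, Caln1 and Arpp21 are neuronal genes of calcium and calmodulin signalling, and their RNA was followed across a slice of mouse brain cut into a grid of small cubes (voxels). The 4 genes were taken by symbol from the platform annotation, and all 4 were measured. They made up 5 of the 20847 rows of the expression table, because Arpp21 had 2 rows, vm000807 and vm005079, and 4 of the 15606 genes tested. They had been picked because their values differed between cortex-like positions and the striatum-like and core positions, so those differences are described here without a test.

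Each array compared voxel RNA with a reference made from whole mouse brain, in C57BL/6 male mice of postnatal day 56 throughout. The labels describe the voxel RNA as pooled. A voxel is named by its grid row (A to G) and column (1 to 11), and 68 positions gave 192 arrays in 3 independent harvests, here datasets 1, 2 and 3 (59, 68 and 65 arrays). Voxel RNA carried Cy3 in datasets 1 and 3 and Cy5 in dataset 2, so that dye and dataset cannot be told apart.

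The labels name no brain region, and positions are grouped here into zones. The cortex-like zone held 29 positions, 17 dorsal ones in rows F and G and 12 lateral ones in columns 1, 2, 10 and 11 of rows C to E. The striatum-like zone held 12 positions in columns 3, 4, 8 and 9 of rows C to E, and the core 9 positions in columns 5 to 7 of the same rows. The 18 positions of rows A and B were kept apart. These names rest on marker genes in these same arrays. The 6 measured genes of a 20-gene striatal list averaged -0.09 ± 0.08 in cortex-like positions, against 1.07 ± 0.23 in striatum-like positions, -0.20 ± 0.42 in the core and -0.08 ± 0.10 in rows A and B. The 4 measured genes of a 20-gene cortical list averaged 0.45 ± 0.07 in cortex-like positions, against -0.35 ± 0.14 in striatum-like positions and -0.46 ± 0.31 in the core. Lateral cortex-like positions had 0.28 ± 0.19 for the striatal list and 0.34 ± 0.13 for the cortical list. Dorsal ones had -0.36 ± 0.02 and 0.54 ± 0.15. Most genes of both lists had no usable row, and the names mean no more than this. Core positions had the highest mean of 5 thalamic genes (0.94 ± 0.47), and rows A and B that of 3 hypothalamic genes (0.63 ± 0.07).

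All values are log2 ratios of voxel over whole brain RNA, with each table row centred on its own median over the arrays, so 0 is the gene's middle position and 1 is a doubling. The level of a gene relative to whole brain is lost, and levels of different genes cannot be set against each other. The labels do not say which channel was divided by which, and positive values were taken to mean more RNA in the voxel, the likely reading. Errors are SDs over the 3 datasets (n = 3) unless another n is given. In such tissue samples, fewer cells of a type and less RNA per cell cannot be told apart.

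The 6 arrays of dataset 2 from columns 1 to 3 and 5 to 7 of row D went against their labels. Over 300 genes that vary by position, they correlated with the remaining datasets at -0.27 on average where the labels put them, and at 0.59 with the columns in reverse order. Nrgn read 0.33, 0.85 and 0.83 at D5, D6 and D7 of dataset 2, where the mean of datasets 1 and 3 was -2.73, -2.34 and -2.47. Caln1 read -1.84, -1.84 and -1.42 at D1, D2 and D3, against 0.16, 0.93 and 1.19 in the other datasets. The labels were kept, and values include these arrays unless stated. Several of the values that these arrays move are also given without them, here called without the 6 row D arrays.

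Calmodulin is the main calcium sensor of neurons. Calcium entering through receptors and channels loads it, and loaded calmodulin switches on kinases and the phosphatase calcineurin. Nrgn (neurogranin) is a small postsynaptic protein that holds calmodulin when calcium is low and releases it when calcium rises. Camk4 is a calcium/calmodulin-dependent kinase, found mainly in the nucleus, that acts on the transcription factor CREB. Caln1 (calneuron 1) is an EF-hand protein related to calmodulin. Arpp21 is a cyclic AMP-regulated phosphoprotein, known from striatal neurons, whose short form binds calmodulin when phosphorylated.

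The genes did not share a single map. Nrgn was highest over the cortex-like positions and lower towards the middle and in rows A and B. Caln1 peaked in a band on the border of the lateral and striatum-like columns of rows C and D. Camk4 had similar means over cortex-like and striatum-like positions and was low in the core. The 2 Arpp21 rows had different maps, vm000807 nearer to Nrgn and vm005079 nearer to Camk4 and Caln1. Among all genes tested, 4.91% differed among positions at an adjusted p under 0.05 (limma's F test). The members' F values, which the choice of members used, were 7.14 for Nrgn (rank 13 of 15606), 4.34 for the Arpp21 average (rank 63), 2.75 for Caln1 (rank 192) and 2.19 for Camk4 (rank 397).

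**Figure D1:**
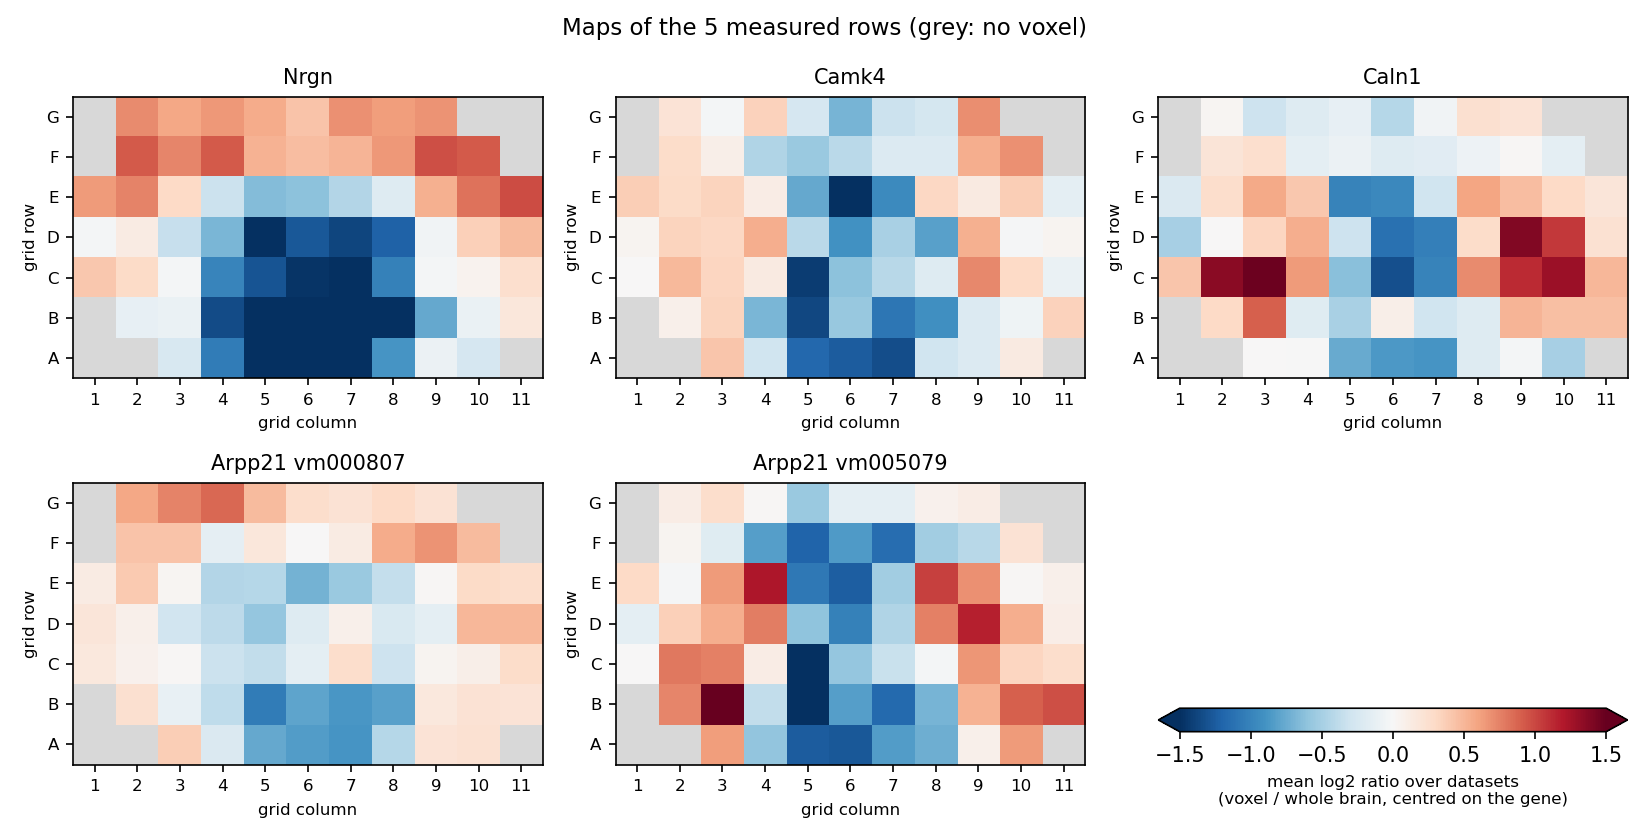
Mean log2 ratio over the datasets at each grid position (row by column) for the 5 measured rows, with red for high, blue for low and grey where there was no voxel; the colour scale ends at -1.5 and 1.5, and the 6 row D arrays are included. Nrgn is red along rows F and G and at the sides of row E, Caln1 is reddest at C3 (1.47) and D9 (1.39), and all 5 rows are blue at B5.

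Nrgn's position means spanned 3.07, and Spearman's rho between the maps of any pair of datasets was 0.65 to 0.86. The span was 3.70 and rho 0.86 to 0.87 without the 6 row D arrays. It was highest at E11, with 0.89, 0.96 and 1.08 in datasets 1, 2 and 3, and at F9, with 0.93, 1.05 and 0.93. With the 6 row D arrays kept, it was lowest at A6, with -1.95, -1.93 and -2.41. Without them D5, D7 and D6 lay below A6, with -2.81 and -2.65 in datasets 1 and 3 at D5, -2.45 and -2.48 at D7, and -2.44 and -2.24 at D6. Left and right matched closely, with r = 0.96 over the 29 mirror pairs of positions and a median absolute difference of 0.198.

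Nrgn averaged 0.51, 0.54 and 0.67 over cortex-like positions in datasets 1, 2 and 3, against -0.64, -0.20 and -0.26 over striatum-like positions. The cortex-like minus striatum-like difference was 0.93 ± 0.20, a ratio of 1.91. Of all genes tested, 0.327% were called higher in this comparison and 0.551% lower, which gives the scale and is no test of Nrgn, chosen on it. Core means were -1.38, -0.14 and -1.92, and the cortex-like minus core difference was 1.72 ± 0.96. The middle core value is dataset 2, and without the 6 row D arrays it was -0.54 and the difference 1.88. Single arrays of the dorsal cortex-like zone had a lowest value of 0.15, a median of 0.64 and a highest of 1.23 (n = 48). The 23 core arrays left after those 6 were set aside had -2.81, -1.01 and -0.09. Striatum-like arrays, also without those 6, had -2.74, -0.25 and 0.82 (n = 34) on the same measures, which overlaps both.

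The order of the zones for Nrgn was dorsal cortex-like (0.68 ± 0.10), lateral cortex-like (0.42 ± 0.15), striatum-like (-0.36 ± 0.24), rows A and B (-0.98 ± 0.25) and core (-1.15 ± 0.91). Each zone was above the next in 3 of 3 datasets except rows A and B over the core, which held in 2 of 3 and by less than its spread (0.17 ± 0.71). Within the striatum-like zone the level depended on the column. Joined left and right over rows C to E, columns 3 and 9 averaged 0.03 ± 0.28 and columns 4 and 8 averaged -0.74 ± 0.32.

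Nrgn's map had a correlation of 0.86 with the mean of the cortical list over 56 positions, and of 0.01 with the striatal list. All positions share the same arrays and reference, so such correlations only describe the maps. The 4 measured myelin genes averaged -0.28 ± 0.29 in cortex-like positions, against 0.65 ± 0.20 in striatum-like positions and 0.30 ± 0.10 in the core. The 3 measured pan-neuronal genes averaged 0.03 ± 0.09, against -0.02 ± 0.04 and 0.02 ± 0.22 in the same zones. The part of the makeup of cells in a voxel in these maps was not tested.

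**Figure D2:**
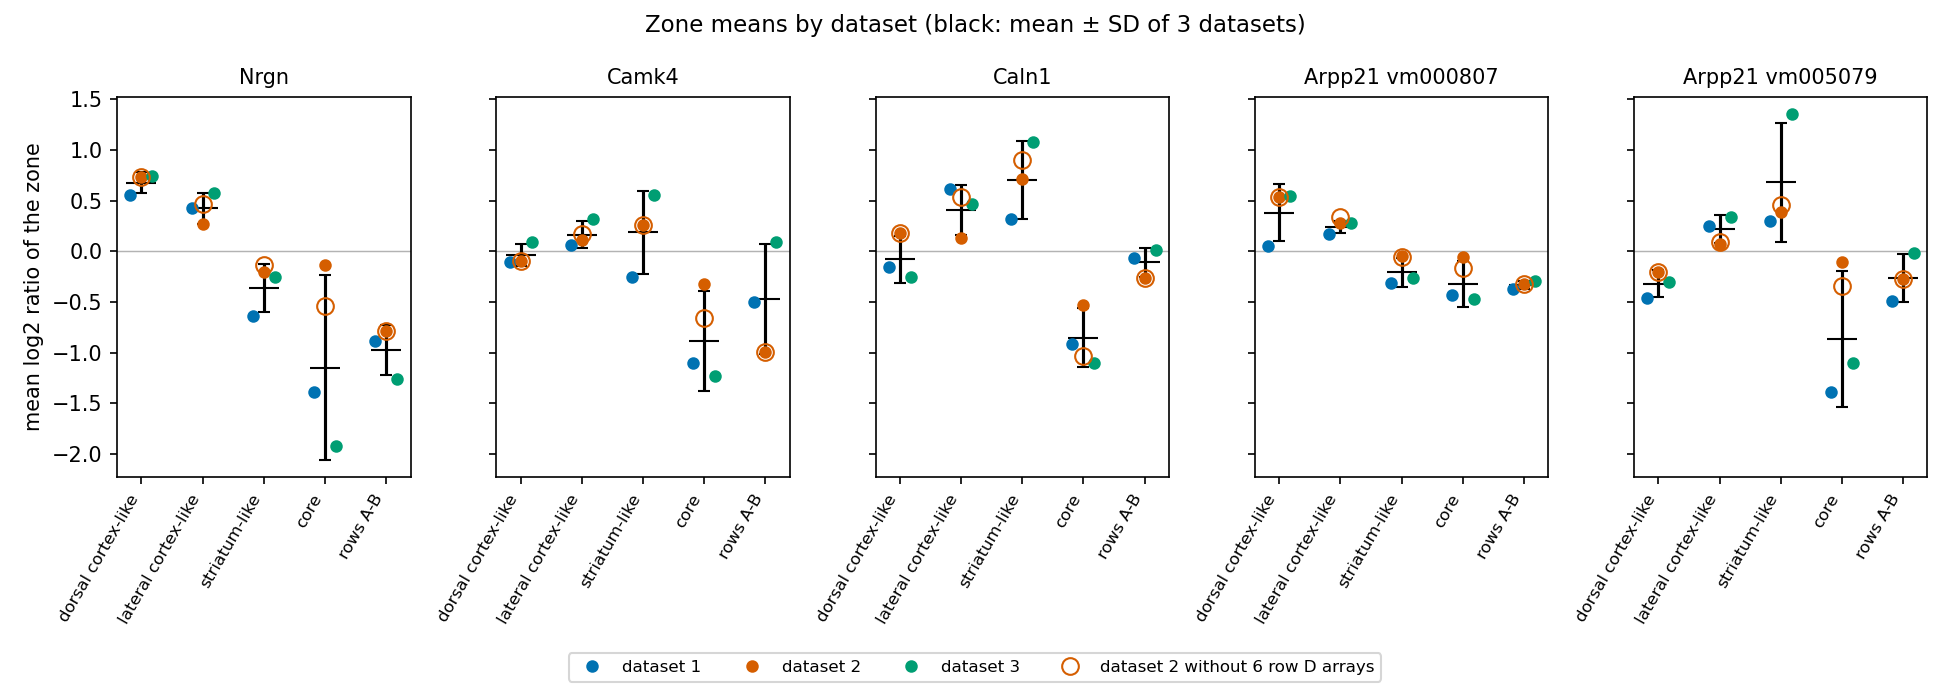
Mean log2 ratio of each zone (vertical axis) for the 5 measured rows, with 1 filled point per dataset, black bars for the mean ± SD of the datasets, and an open circle for dataset 2 without the 6 row D arrays. Nrgn and Arpp21 vm000807 are lower in striatum-like than in cortex-like positions, Caln1 and Arpp21 vm005079 are higher there, and the core value of dataset 2 lies above those of datasets 1 and 3. With the 6 arrays left out it moves towards them, for Caln1 to -1.03.

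Caln1 had its highest levels inside the striatum-like zone and next to it. It read 1.39, 1.59 and 1.42 in datasets 1, 2 and 3 at C3, and 1.01, 1.80 and 1.35 at D9. It read 1.16, 1.40 and 1.48 at C2 and 1.10, 1.66 and 1.10 at C10, which are counted as lateral cortex-like. All 4 positions were above 1 in every dataset, and C9, the mirror of C3, averaged 1.12 ± 0.35. The lowest position was C6 (-1.31 ± 0.59) with the 6 row D arrays kept and D6 without them, at -1.79 and -1.95 in datasets 1 and 3. Maps of the datasets had a rho of 0.21 to 0.60 with each other, and of 0.41 to 0.62 without those arrays.

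Caln1 averaged 0.16, 0.16 and 0.09 over cortex-like positions, against 0.32, 0.71 and 1.08 over striatum-like positions. It was thus lower in cortex-like positions in 3 of 3 datasets, with a difference of -0.56 ± 0.42, opposite in sign to that of Nrgn. The core gave -0.92, -0.53 and -1.10, so that cortex-like minus core was 0.99 ± 0.26 and striatum-like minus core 1.55 ± 0.55, a ratio of 2.93. Without the 6 row D arrays the core averaged -1.02 ± 0.09 and the cortex-like minus core difference was 1.20. With the same 6 arrays left out, single arrays had a lowest value of -1.18, a median of 0.04 and a highest of 1.66 in cortex-like positions (n = 81), against -0.67, 0.89 and 1.80 in striatum-like positions (n = 34) and -1.95, -1.01 and 0.19 in the core (n = 23). All 3 zones overlapped at the level of single arrays. In the order of zones, striatum-like came before lateral cortex-like in 2 of 3 datasets (0.30 ± 0.51), and the dorsal cortex-like zone (-0.08 ± 0.23) and rows A and B (-0.11 ± 0.14) did not differ beyond their spread (0.03 ± 0.37).

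Caln1's map had a correlation of 0.73 with the striatal list and 0.17 with the cortical one (0.76 and 0.27 without the 6 row D arrays). Across rows C to E its profile climbed to 0.91 ± 0.14 in columns 3 and 9, between 0.10 ± 0.36 in columns 1 and 11 and -1.14 ± 0.41 in column 6. Without the 6 row D arrays these values were 1.05 ± 0.15, 0.20 ± 0.19 and -1.35 ± 0.38, so the shape of the profile did not rest on them. The edge of its band inside columns 4 and 8 was where datasets varied most (0.53 ± 0.65), with -0.17 in dataset 1.

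**Figure D3:**
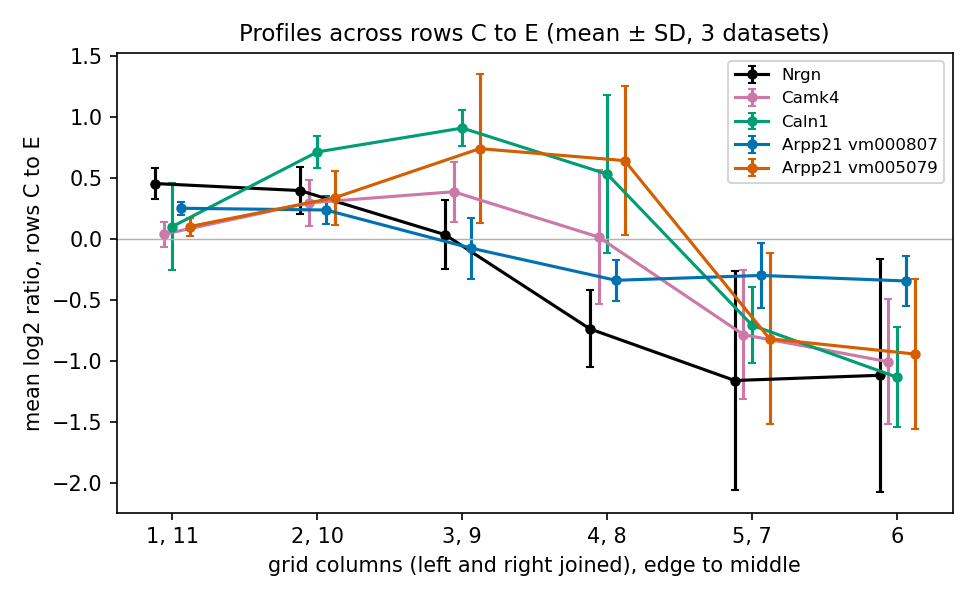
Mean log2 ratio over rows C to E (vertical axis, mean ± SD of 3 datasets) by grid column from the edge to the middle, with matching left and right columns joined and the 6 row D arrays included. Nrgn and Arpp21 vm000807 are highest in columns 1 and 11, while Caln1, Camk4 and Arpp21 vm005079 peak in columns 3 and 9 and are below 0 in columns 5 to 7.

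The RefSeq promoter table of GRCm38.p6 held 1 start site for each of Nrgn and Caln1, the members with opposite differences between cortex-like and striatum-like positions, and 9 for Arpp21. The bases before the annotated gene are printed for these 2 genes, 5′ to 3′ on the gene's strand. Capitals mark matches, on either strand, to the E-box CANNTG or to the GC box GGGCGG, and the 2 motifs do not overlap here. Nrgn covers chr9:37552746-37552995 (minus strand) and Caln1 chr5:130369208-130369403 (plus strand).
Nrgn: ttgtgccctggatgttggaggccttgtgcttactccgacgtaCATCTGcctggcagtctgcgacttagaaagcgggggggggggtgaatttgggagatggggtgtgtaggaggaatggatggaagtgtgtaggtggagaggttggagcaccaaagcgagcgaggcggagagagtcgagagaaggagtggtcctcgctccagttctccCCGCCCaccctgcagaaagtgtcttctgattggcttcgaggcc
Caln1: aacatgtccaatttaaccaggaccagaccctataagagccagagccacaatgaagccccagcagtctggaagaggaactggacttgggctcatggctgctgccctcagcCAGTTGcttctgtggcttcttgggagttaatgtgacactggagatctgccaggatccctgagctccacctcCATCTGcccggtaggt
Nrgn had 1 E-box and 1 GC box in these 250 bases, and Caln1 had 2 E-boxes and no GC box in its 196 bases (3 E-boxes in its full window of 250 bases). Over the 32851 windows of 250 bases before a start site in the table, 66.2% held an E-box and 32.7% a GC box. The cyclic AMP response element TGACGTCA, the CREB motif, was in 1.55% of all windows and in none of the windows of Nrgn, Caln1 or Arpp21. Its first 5 letters, TGACG, were in 17.8% of all windows and in 2 of the 9 windows of Arpp21. The arrays do not show which start site was used.

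The Camk4 maps of the datasets had a rho of 0.35 to 0.42 with each other (0.42 to 0.52 without the 6 row D arrays), below those of Nrgn. It averaged -0.03, -0.01 and 0.19 over cortex-like positions in datasets 1, 2 and 3, against -0.25, 0.26 and 0.56 over striatum-like positions. The difference was -0.14 ± 0.31 and changed sign between datasets, so these 2 zones were not separated. The core gave -1.10, -0.32 and -1.23, below the cortex-like zone by 0.93 ± 0.57 and below the striatum-like zone by 1.07 ± 0.64, in 3 of 3 datasets each. Without the 6 row D arrays the cortex-like minus core difference was 1.05. Single arrays, again without these 6, had a lowest value of -1.50, a median of 0.10 and a highest of 1.42 in cortex-like positions (n = 82), against -3.22, 0.27 and 1.00 in striatum-like positions (n = 34) and -3.49, -0.96 and 0.13 in the core (n = 22). The core median lay below those of the other zones, while the ranges overlapped.

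The highest Camk4 positions were C9, with 0.55, 0.63 and 1.00, and G9, with 0.46, 0.21 and 1.42. The G9 array of dataset 3 had a wide spread of all its values. Its median absolute deviation was 0.77, against 0.29 and 0.30 for G9 in datasets 1 and 2. The lowest Camk4 position was E6, with -1.58, -1.55 and -1.35, when the 6 row D arrays were kept. Without them D6 averaged lower, at -1.59, from -2.35 and -0.83 in datasets 1 and 3, which are further apart than the means of D6 and E6. At C5 the mean of -1.43 came mostly from dataset 3 (-3.49), while datasets 1 and 2 read -0.55 and -0.23. Rows A and B varied between datasets, with -0.50, -0.99 and 0.09, and B7 and D5 of dataset 1 were at the floor of the table and counted as not measured. Camk4's map had a correlation of 0.57 with the striatal and 0.38 with the cortical list (0.58 and 0.47 without the 6 row D arrays).

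The 2 Arpp21 rows went opposite ways between cortex-like and striatum-like positions in every dataset. Row vm000807 averaged 0.10, 0.43 and 0.42 over cortex-like positions, against -0.32, -0.05 and -0.26 over striatum-like ones, a difference of 0.53 ± 0.14. Row vm005079 averaged -0.17, -0.09 and -0.0045 over cortex-like positions, against 0.30, 0.39 and 1.36 over striatum-like ones, a difference of -0.77 ± 0.51. Their average, which stands for the gene in the fit over all genes, gave -0.12 ± 0.19 and shows neither. The annotation gives both rows the same symbol, and which transcripts each probe binds was not analysed here.

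In the core the rows differed as well. Striatum-like minus core was 0.11 ± 0.10 for vm000807 and 1.55 ± 0.98 for vm005079, above 0 in 3 of 3 datasets for each. Without the 6 row D arrays the core averaged -0.35 ± 0.17 for vm000807 and -0.94 ± 0.54 for vm005079. Row vm000807 was highest at G4 (0.52, 0.53 and 1.55) and G3 (0.24, 1.25 and 0.74). The highest single values there came from arrays with a wide spread of all their values. The median absolute deviation was 0.22, 0.19 and 0.57 for G4 in datasets 1, 2 and 3, and 0.23, 0.78 and 0.33 for G3. Row vm005079 was highest at B3 (1.87 and 1.26, in datasets 2 and 3) and at E4 (0.29, 1.83 and 1.51), and it was low in row F, down to -1.21 ± 0.55 at F5. Its lowest means with the 6 row D arrays kept were -1.63 at B5 and -1.60 at C5, and without them D6 had -1.66. At C5, a core position, dataset 3 read -3.82, against -0.715 and -0.27 in datasets 1 and 2. Between datasets the maps had a Pearson's r of 0.47 to 0.67 for vm000807 and 0.44 to 0.59 for vm005079. The maps of the 2 rows, averaged over datasets, had an r of 0.38 with each other. Within datasets 1, 2 and 3 it was 0.58, 0.52 and 0.12. By r the rows were thus about as alike in datasets 1 and 2 as each row was between datasets, and dataset 3 was lowest. By Spearman's rho without the 6 row D arrays, the rows had 0.47, 0.38 and 0.09 with each other. Between datasets rho was then 0.46 to 0.67 for vm000807 and 0.61 to 0.72 for vm005079. Pearson's r without these arrays was 0.58, 0.53 and 0.12 between the rows. Between datasets r was then 0.47 to 0.70 for vm000807 and 0.51 to 0.61 for vm005079, so likeness of the rows depended on the measure.

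Row vm000807 followed the cortical list (r = 0.82) and not the striatal one (0.00), while vm005079 followed the striatal list (0.75) and less the cortical one (0.14). Correlations of vm000807 were 0.82 with Nrgn, 0.62 with Camk4 and 0.28 with Caln1. Those of vm005079 were 0.38, 0.77 and 0.74 with the same genes (0.46, 0.79 and 0.79 without the 6 row D arrays). Between the other members, Camk4 and Caln1 had a correlation of 0.70, Nrgn and Camk4 of 0.63, and Nrgn and Caln1 of 0.40. These were 0.78, 0.70 and 0.53 without the 6 row D arrays.

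**Figure D4:**
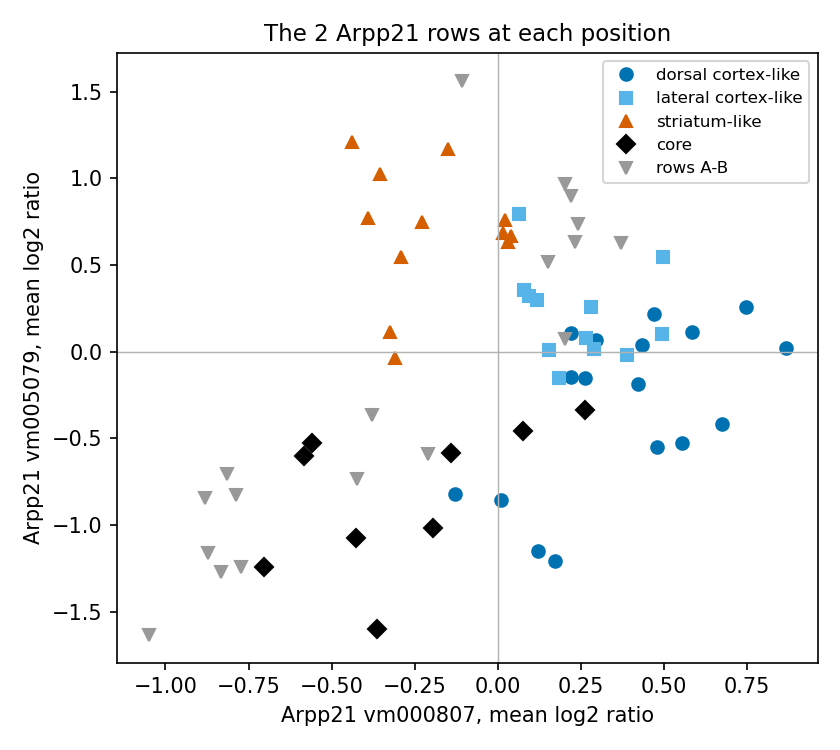
Mean log2 ratio of Arpp21 row vm005079 (vertical) against row vm000807 (horizontal) at each of the 68 positions, marked by zone. Cortex-like positions lie mostly to the right and striatum-like positions mostly to the upper left. The correlation over the 56 positions measured in all datasets is 0.38.

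Comparisons that the rule for choosing the genes did not name were tested over all 15606 genes. The tests used limma on differences within each dataset, with Benjamini-Hochberg adjustment. The F values known at the choice cover all positions, so these comparisons are not fully independent of the choice. No gene passed in any of the 4, and the percentage called was 0 in each. At an unadjusted p under 0.05 there were 522 genes between the sides of the grid, 1136 between rows G and F, 743 between lateral and dorsal cortex-like positions and 2014 between rows C and E of the striatum-like columns. Missing the threshold does not show that levels were equal.

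Between columns 1 to 5 and columns 7 to 11 the members' differences were small. They ran from -0.12 ± 0.03 for Caln1 (95% interval -0.25 to 0.02, adjusted p = 0.958, limma) to 0.05 ± 0.21 for Camk4 (-0.17 to 0.27, adjusted p = 0.968, limma). Caln1 was lower in columns 1 to 5 in 3 of 3 datasets, and without the 6 row D arrays its difference was -0.05.

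Between row G and row F, over matching columns, row vm005079 of Arpp21 had the largest difference among the members' rows. It averaged -0.16, 0.12 and -0.01 in row G, against -0.83, -0.57 and -0.55 in row F. In a separate fit of single rows, adjusted over 19683 rows, the difference of 0.63 ± 0.08 (interval 0.22 to 1.05) did not pass (adjusted p = 0.669, limma, 3 of 3 datasets higher). The Arpp21 average gave 0.41 ± 0.16 (adjusted p = 0.674, limma). Nrgn had 0.62 ± 0.12 in row G and 0.71 ± 0.16 in row F, a difference of -0.09 ± 0.18. Camk4 (0.06 ± 0.32) and Caln1 (-0.11 ± 0.21) changed sign between datasets.

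Between lateral and dorsal cortex-like positions, Nrgn was lower laterally in 3 of 3 datasets, at 0.42 ± 0.15 against 0.68 ± 0.10 dorsally (adjusted p = 0.968, limma). Without the 6 row D arrays Nrgn's lateral mean was 0.49 ± 0.08, and the dorsal mean was above it by 0.19 ± 0.07. The other genes leaned the other way. Caln1 averaged 0.61, 0.14 and 0.47 laterally, against -0.16, 0.18 and -0.26 dorsally, a difference of 0.48 ± 0.46 (interval 0.03 to 0.93, adjusted p = 0.968, limma). Dataset 2 was the exception for Caln1, and without the 6 row D arrays its lateral mean was 0.53 and the overall difference 0.61. Camk4 differed by 0.20 ± 0.03, with all 3 datasets between 0.17 and 0.23 (adjusted p = 0.968, limma). Row vm005079 differed by 0.54 ± 0.23 and row vm000807 by -0.14 ± 0.22. The striatal list also differed here, at 0.28 ± 0.19 in lateral positions against -0.36 ± 0.02 in dorsal ones. Its part in the Caln1, Camk4 and vm005079 values was not tested.

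Within the striatum-like columns, Nrgn and Caln1 ran in opposite directions between rows C and E. Nrgn averaged -0.70, -0.30 and -0.65 in row C, against -0.16, 0.17 and 0.11 in row E, a difference of -0.59 ± 0.15 (interval -0.91 to -0.27, adjusted p = 0.333, limma). Caln1 averaged 0.33, 1.17 and 1.19 in row C, against -0.14, 0.80 and 0.68 in row E, a difference of 0.45 ± 0.08 (interval 0.15 to 0.75, adjusted p = 0.333, limma). Each direction held in 3 of 3 datasets, and neither passed. Row vm005079 had a difference of -0.54 ± 0.29, and Camk4 differed by 0.08 ± 0.18.

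The genes with maps most like each member's were found among 8445 genes with a single symbol, by Pearson's r of position means over the 56 positions measured in all datasets. For Nrgn they were the corepressor subunit Rcor3 (r = 0.97), the Rac regulator Chn1 (0.94), the immediate early gene Egr1 (0.94), the synaptic protein gene Prrt2 (0.88) and the Arf6 exchange factor Psd (0.88). Within single datasets these 5 genes had an r of 0.69 to 0.95 with Nrgn. Rcor3 averaged 0.57 ± 0.25 in cortex-like positions, against -0.34 ± 0.40 in striatum-like ones.

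For Camk4 they were Arpp21 (0.84), the phosphatase-regulating phosphoprotein gene Arpp19 (0.80), Vps18 (0.74), the receptor tyrosine kinase gene Tyro3 (0.71) and the calcineurin catalytic subunit Ppp3ca (0.70). For Caln1 they were the striatal phosphoprotein gene Ppp1r1b, also called DARPP-32 (0.75), the phosphodiesterase gene Pde2a (0.73), the Rac exchange factor Tiam2 (0.72), Arpp19 (0.71) and Camk4 (0.70). These lists rest on the mean maps: within single datasets r fell as low as 0.34 for Tyro3 and 0.44 for Vps18 with Camk4 (both in dataset 3) and 0.45 for Camk4 with Caln1 (in dataset 2). By Spearman's rho Tyro3 took place 22 and Vps18 place 27 for Camk4. Ppp1r1b averaged -0.09 ± 0.37 in cortex-like positions, against 2.09 ± 0.34 in striatum-like ones.

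For the Arpp21 average the list was Camk4 (0.84), Arpp19 (0.83), Tyro3 (0.80), the adaptor gene Sorbs2 (0.80) and Vps18 (0.78). Taken apart, the rows shared none of their 5 nearest genes. Row vm000807 was nearest to Wsb2 (0.88), Vps18 (0.87), the chemokine gene Cx3cl1 (0.87), Plekho1 (0.86) and the transcription factor gene Mef2c (0.85), which is itself on the cortical list. Row vm005079 was nearest to Camk4 (0.77), Ppp1r1b (0.76), Caln1 (0.74), the tropomyosin gene Tpm1 (0.74) and Rasd2 (0.71), and Ppp1r1b and Rasd2 are on the striatal list. Within dataset 1 the r of Wsb2 with vm000807 was 0.46 and that of Tpm1 with vm005079 0.37. Without the 6 row D arrays 4 of the 5 nearest genes were kept for each of Nrgn, Camk4, Caln1 and the Arpp21 average, and all 5 for each Arpp21 row.

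Of 165 other genes of calmodulin, calcium and cyclic AMP signalling, 76 were measured. Of these, 20 (26.3%) differed among positions, where 4.91% of all genes did. The lists were chosen with earlier results of these data known, so their shares beside those of all genes are a description and no independent test. All genes here include those without a symbol, and 8467 of the genes tested had one. In the cortex-like against striatum-like comparison 5 of the 76 passed as higher, where 0.327% of all genes did (limma). As lower 0 of the 76 passed, where 0.551% of all genes did, so that count is near the share of all genes. The median of the 76 differences was 0.04, beside 0.03 over all genes. No gene of the table passed this comparison without dataset 2 or with floor values kept, so the calls named below rest on those choices. Against the core no gene of the table passed (limma, 1524 at an unadjusted p under 0.05, percentage called 0), and the median of the 76 was 0.02, beside -0.01 over all genes.

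The cyclic AMP genes and relatives of Arpp21 had the highest share, with 6 of 11 called among positions. Pde1a, a calmodulin-activated phosphodiesterase, was higher in cortex-like positions, at 0.49 ± 0.13 against -0.51 ± 0.17 in striatum-like ones (adjusted p = 0.0120, limma). Prkar1b, a regulatory subunit of protein kinase A, was higher by 0.89 (adjusted p = 0.0128, limma), and R3hdm1, which like Arpp21 carries an R3H domain, by 0.69 (adjusted p = 0.0194, limma). R3hdm2 differed by 0.42 without passing (adjusted p = 0.0729, limma). Arpp19 averaged 0.29 ± 0.19 in cortex-like positions, against 0.22 ± 0.12 in striatum-like ones and -0.66 ± 0.35 in the core. Ppp1r1a, an inhibitor of protein phosphatase 1, was called among positions and differed by 0.11.

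Among kinases and their targets 2 of 13 were called. Camk2g, a subunit of calcium/calmodulin-dependent kinase II, was higher in cortex-like positions, at 0.36 ± 0.05 against -0.34 ± 0.09 in striatum-like ones (adjusted p = 0.0172, limma); its relative Camk4 differed by -0.14 ± 0.31. Camk1d differed by 0.14 without passing. Of the calcineurin genes 2 of 10 were called. Ppp3ca averaged 0.19 ± 0.19 in cortex-like positions, 0.22 ± 0.12 in striatum-like ones and -0.71 ± 0.40 in the core, and the calcineurin regulator gene Rcan3 had -0.29 ± 0.63, 0.00 ± 0.33 and 0.17 ± 0.64 in the same zones.

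Among calmodulin genes and proteins that bind calmodulin, 4 of 16 were called. Gap43, the growth cone protein that like Nrgn holds calmodulin through an IQ motif, averaged -0.29 ± 0.02 in cortex-like positions, against -0.14 ± 0.23 in striatum-like ones and 0.17 ± 0.11 in the core, and reached 0.98 ± 0.16 in rows A and B. There Nrgn had -0.98 ± 0.25. Marcksl1 also had its highest zone mean in rows A and B (0.73 ± 0.06). The calmodulin gene Calm2 varied less, with 0.19 ± 0.26 in cortex-like positions, 0.05 ± 0.11 in striatum-like ones and -0.49 ± 0.10 in rows A and B. Cnn3, a calponin, averaged -0.11 ± 0.11 in cortex-like positions, against 0.26 ± 0.10 in striatum-like positions.

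EF-hand proteins, the family of Caln1, had 5 of 14 called. Efhd2 was higher in cortex-like positions by 0.51 (adjusted p = 0.0448, limma). Ncald, a neuronal calcium sensor, differed by 0.50 (adjusted p = 0.0614, limma), Kcnip3 by 0.15, the calcium buffer gene Calb1 by -0.01 and Efhd1 by -0.41 (adjusted p = 0.117, limma). None of the 14 was called lower in cortex-like positions, the direction in which Caln1 lay, where 0.551% of all genes were. A count of 0 among 14 genes is near that share and sets no contrast with Caln1. Of the channels and pumps 1 of 12 was called, Atp2a2, the calcium pump of the endoplasmic reticulum, which differed by 0.13.

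**Figure D5:**
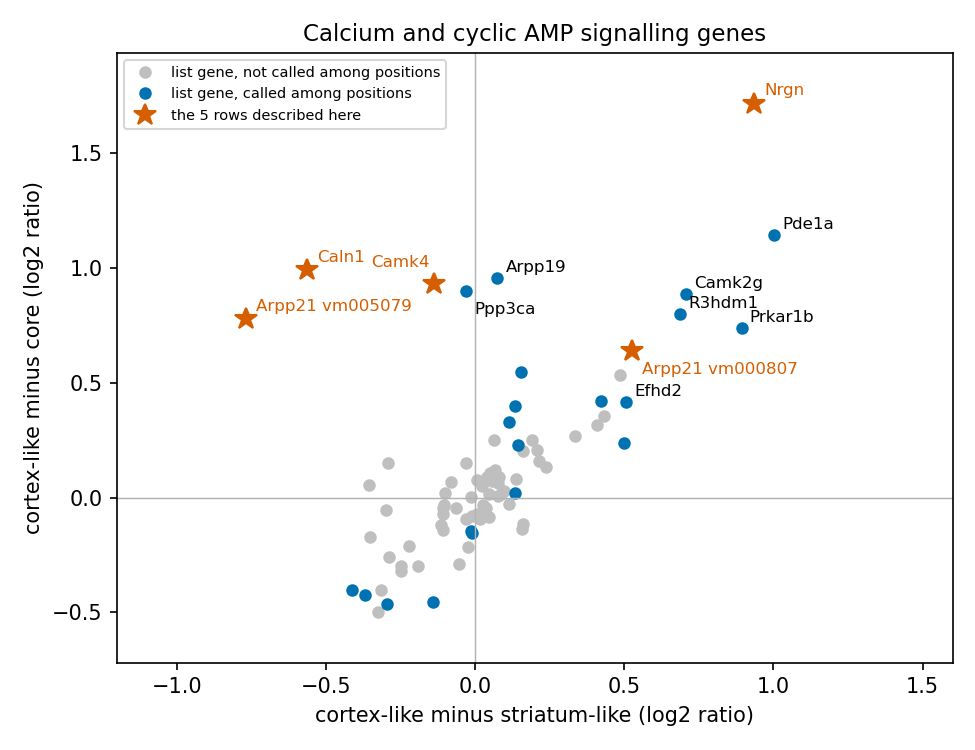
Cortex-like minus core (vertical) against cortex-like minus striatum-like (horizontal) differences in log2 ratio for the 76 measured genes of the signalling lists and the 5 rows of the members. Nrgn (0.93, 1.72) lies beyond Pde1a (1.00, 1.14) on the vertical axis, Camk4 lies near Arpp19 and Ppp3ca, and Caln1 and Arpp21 vm005079 lie apart on the left.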

How the data were processed

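Voxel and whole brain RNA were hybridised together on 192 two-colour arrays, per the labels. The authors deposited 1 table of log2 ratios; how they corrected background and normalized is not given in the sources used here. Values at -6.64, a floor (a ratio of 0.01, 0.492% of values), were treated as not measured, and 1.93% were missing. Rows were named through the platform annotation. The 20 control rows were left out, each array was centred on its median, rows with values on 80% or more of each dataset's arrays were kept, and rows of 1 symbol were averaged, which left 15606 genes.

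Zones were compared with limma 3.58.1 (R 4.3.3) on 1 difference per dataset against 0, two-sided, with Benjamini-Hochberg adjustment over all genes at 0.05. The 2 Arpp21 rows took their values from a second fit over 19683 single rows, adjusted over those. The F test among positions used dataset as a block. The scripts were tested on simulated data. Arrays of a dataset deviated together (median correlation of deviations 0.18, 0.26 and 0.26), and the labels call the datasets independent harvests, so the dataset numbers pair the samples. Whether the animals of a pool are separate replicates is not stated, and p-values cover the spread between datasets. The number of arrays limits the precision. Arrays of 1 dataset correlated at -0.57 or more (median 0.17, 0.676% of pairs under -0.3), and no sign was turned, since the labels name the dyes and brain regions can oppose. No pair of arrays correlated above 0.83, and none was counted as a duplicate.

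The members, gene lists and zones were chosen with earlier results of these data known. Named genes are the 4 members, the 5 genes most like each, up to 6 genes called among positions per list, and markers. Alternatives changed the normalization, the floor, the row filter, the arrays or datasets used, the block and the model. Spot intensities were not used here.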

Additional observations from a re-analysis of the deposited data

How the results depend on the processing

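The number of genes differing among positions was 766 and became 1166 with quantile normalization, 366 with no replicate block (dataset not in the model), and 213 to 546 when 1 dataset was left out. The number differing between cortex-like and striatum-like positions was 137. It became 282 with quantile normalization, 0 with floor values kept, 491 with only rows measured on every array, 3 with no replicate block, 1060 with arrays as samples, and 0 to 454 when 1 dataset was left out. The 0 came without dataset 2 (limma, 1489 at an unadjusted p under 0.05). Against the core, where 0 passed, 42 passed with quantile normalization, 157 with rows on every array, 896 with arrays as samples and 1 without the 6 row D arrays of dataset 2. Rows on every array and arrays as samples gave 14 and 1310 between rows G and F, 1 and 91 between lateral and dorsal positions, and 119 and 100 between rows C and E; leaving out 1 dataset gave 0 to 1 between lateral and dorsal positions. The cause of these changes was not tested. Treating arrays of 1 dataset as separate samples ignores that they share a harvest.

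The members' tested differences kept their direction and stayed below the threshold in 160 of the alternatives' values. They passed in 2, Arpp21 between rows G and F with arrays as samples (0.41, adjusted p = 0.0203, limma) and Nrgn between rows C and E with rows on every array (-0.59, adjusted p = 0.0254, limma), where fewer genes were tested. They changed sign in 10, all but 2 of them near 0. Leaving out 1 dataset gave -0.102 to 0.0563 for Nrgn and -0.0639 to 0.142 for Camk4 between the sides, and -0.147 to 0.0110 for Nrgn and -0.0600 to 0.241 for Camk4 between rows G and F. Camk4 also gave -0.0396 between the sides with floor values kept and -0.0301 between rows G and F with quantile normalization. Caln1 gave 0.0074 between rows G and F without the arrays with over 10% of values missing, an alternative chosen after seeing the data. Row vm000807 of Arpp21 on its own gave -0.14 between lateral and dorsal positions and 0.081 between rows C and E, opposite to the average of the rows. Cortex-like minus striatum-like ran from 0.83 to 1.05 for Nrgn, -0.77 to -0.35 for Caln1 and -0.32 to -0.03 for Camk4 over all alternatives, and cortex-like minus core stayed above 0 for all 4 genes (lowest 0.56). The mean likeness of each gene's 5 nearest genes moved by more than its spread over datasets in 12 of 16 alternatives (rank correlation, or 1 dataset alone). Leaving the 6 row D arrays out of the position maps was chosen after seeing the data.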
